A study of Mus musculus with 6 samples.

Results

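Genes for the proteins of the mitochondrial ribosome were examined in the epicardium and subepicardium of hearts from mouse embryos bred for deletion of the homeodomain transcription factors Meis1 and Meis2 and from wild-type embryos. The set held every row of the expression table whose symbol began with Mrpl or Mrps and a digit, 80 of 14549 genes. Of these, 51 carried an Mrpl symbol, which stands for the large subunit, and 29 an Mrps symbol, which stands for the small subunit. The symbols did not match the ribosome's architecture in 5 cases. Mrpl23-ps1 and Mrpl48-ps are pseudogenes, the products of Mrps18a and Mrps30 sit in the large subunit (mL66 and mL65), and Mrps36 encodes a component of the 2-oxoglutarate dehydrogenase complex.

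Mitochondria carry their own ribosome, which translates only the messages of the mitochondrial genome, all of them for subunits of the respiratory chain and ATP synthase. Its RNAs are transcribed from mitochondrial DNA, whereas all of its proteins are encoded in the nucleus, made on cytosolic ribosomes and imported. Some of these proteins descend from the bacterial ribosome and others were added in the mitochondrial lineage, and heart muscle, which is rich in mitochondria, is a tissue of high demand for them.

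The dKO pools came from Meis1 fl/fl;Meis2 fl/fl;WT1-Cre embryos at E16.5 (embryonic day), in which both genes were floxed and Cre was driven from Wt1, a gene of the embryonic epicardium. The control pools came from wild-type embryos of the same stage; the sources used here give neither the deleted exons nor whether any control embryo carried Cre or floxed alleles. Each of the 3 libraries per genotype was made from polyadenylated RNA of a pool of 2 hearts of the same genotype, drawn from 3 or more litters in all, with 40 ng of total RNA as input and a kit not stated to keep strand, so that replicates are pools and not single embryos. Libraries keep the numbers of their titles, dKO 1, 2 and 3 and control 1, 2 and 4.

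Values are normalised read counts, that is reads plus 0.5 per 1000000 of a scaled library size, and 1 read was worth 0.0487 to 0.0740 on this scale in libraries of 13146322 to 20635676 reads. Meis2 had 44.5, 34.8 and 44.5 in the dKO pools, against 86.1, 85.6 and 63.3 in the control pools (log2 change -0.90, SE 0.16, limma adjusted p = 0.0035). An exact permutation test of the same values gave p = 0.1, the lowest value that 3 against 3 libraries allows. Meis1 was not past the threshold (log2 change -0.20, limma adjusted p = 0.521), and neither value isolates the deleted exons. Markers of cardiomyocytes moved with genotype: 18 of 20 were higher in dKO pools, with a mean log2 value over the 20 of 9.59 to 9.87 in dKO pools, against 7.27 in control 1 and 8.37 and 8.44 in control 2 and 4. Their summed level was 36808 to 39774 in dKO pools, against 7087 to 15508 in control pools. Of 19 epicardial markers 17 were lower (summed level 716 to 920.2 in dKO pools, against 3227 to 4769 in control pools). Lower too were 6 of 8 fibroblast and 3 of 8 macrophage markers. Over all genes 9.81% were higher and 12.2% lower. Of 8 endothelial markers 1 was lower (12.5%, near the share of all genes), and the list median was 0.12. Of 8 erythroid markers 0 passed the threshold in either direction with limma or edgeR (1 at an unadjusted p under 0.05). Without control 1, 3 of the 8 erythroid markers were higher with limma, against 8.06% of all genes. In such bulk samples a change in the share of a cell type and a change in RNA per cell cannot be told apart.

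Genes of the mitochondrial ribosome were higher in dKO pools where they passed the test at all, and most did not pass. With limma and Benjamini-Hochberg adjustment over all 14549 genes at a threshold of 0.05, 13 of the 80 genes were higher (16.2%, against 9.81% of all genes), 0 were lower (against 12.2% of all genes) and 67 did not pass. In either direction together the share was 16.2%, against 22.0% of all genes. The log2 change was above 0 for 76 of 80 genes, against 7301 of 14549 genes in the whole table. Its median was 0.39 over the 80 genes and 0.00 over all genes. At an unadjusted p under 0.05, 35 of the 80 genes passed, none of them lower, against 5107 of all 14549 genes in either direction. On recovered reads edgeR and DESeq2 called 13 and 17 higher (against 8.96% and 11.1% of all genes) and 0 lower (against 11.4% and 13.8%).

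Every dKO pool exceeded every control pool for 34 of the 80 genes (42.5%, against 19.3% of all genes), the reverse held for 0 genes (against 21.1%), and the groups overlapped for 46. All 13 genes past the threshold were among the 34. The spread within groups was not even: control 1 was the lowest of the 6 libraries for 62 of 80 genes and dKO 1 the highest for 46, against 3634 and 3173 of all 14549 genes. The pools also differed in sex: Ddx3y, on the Y chromosome, was high in dKO 1, dKO 2 and control 4, and Xist in dKO 3, control 1 and control 2. With sex as a covariate 4 of the 80 genes were higher (against 6.79% of all genes): Mrps27, Mrpl12, Mrpl45 and Mrps31. Without control 1 the count of higher genes was 4 (all genes 8.06%), the median log2 change 0.28 and the number above 0 was 66.

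**Figure D1:**
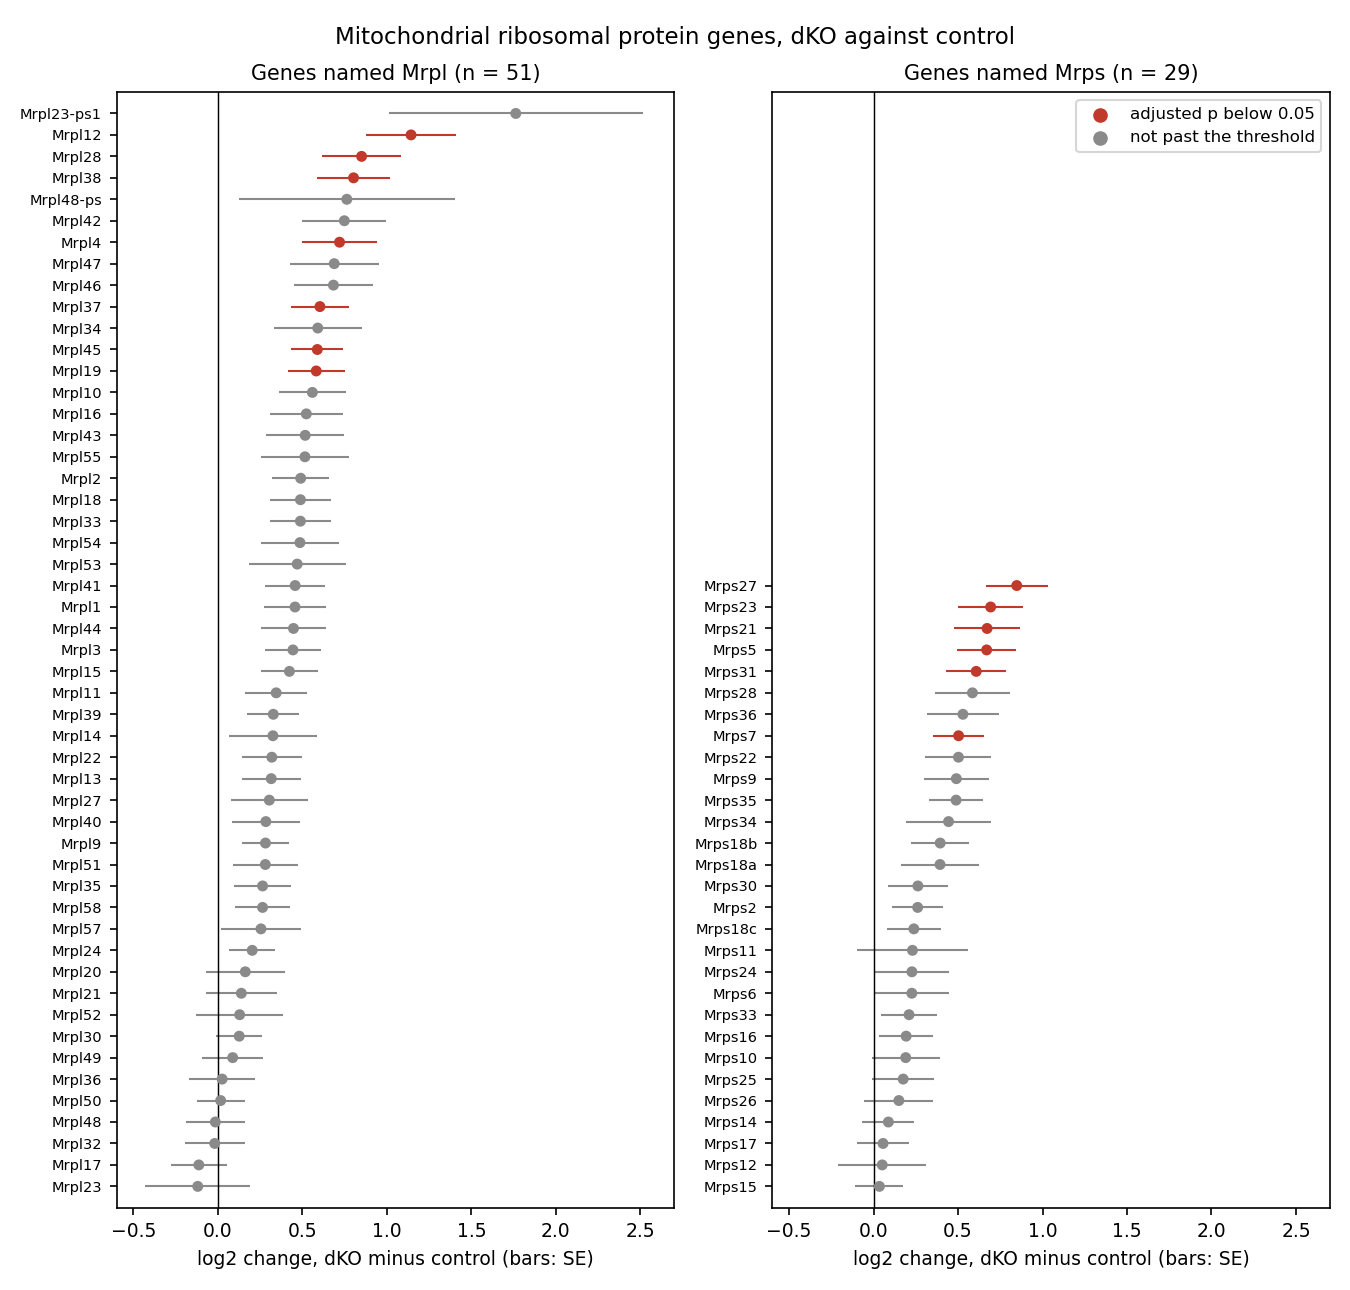
Log2 change (dKO minus control, after adding 1 to each value) of the 51 genes named Mrpl and the 29 named Mrps, with bars of 1 SE from limma; red marks an adjusted p under 0.05. Most points lie to the right of 0, from -0.12 for Mrpl23 to 1.76 for the pseudogene Mrpl23-ps1, whose SE was 0.75.

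The genes past the threshold were higher in dKO pools in both subunits. Among Mrpl genes 7 of 51 were higher (13.7%, against 9.81% of all genes), 47 had a log2 change above 0 and the median was 0.44. Among Mrps genes 6 of 29 were higher (20.7%, against the same 9.81%), 29 of 29 had a log2 change above 0 and the median was 0.26. The distance between the medians was not tested. The SD between libraries was 0.21 for the Mrpl and 0.19 for the Mrps median. Both medians come from the same libraries, so neither SD measures the spread of their distance. Without control 1 the medians were 0.28 and 0.26, and 2 of 51 Mrpl and 2 of 29 Mrps genes were higher. Both shares were below the 8.06% of all genes.

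Within the large subunit the gene with the largest change past the threshold was Mrpl12, which encodes bL12m, the protein of the flexible stalk that recruits translation factors to the ribosome; in human cells it is also reported to bind the mitochondrial RNA polymerase. Mrpl12 (ENSMUSG00000039640, GRCm38 chr11:120484613-120489065, plus strand) had 80.6, 49.5 and 47.8 in the dKO pools, against 16.8, 30.9 and 31.8 in the control pools. All dKO pools lay above all control pools, with dKO 1 far above the other dKO pools and control 1 far below the other controls. Its mean was 59.3 ± 18.5 in dKO pools and 26.5 ± 8.40 in control pools (SD, n = 3 each), a ratio of 2.24 (log2 change 1.14, SE 0.27, limma adjusted p = 0.0126). Without control 1 its log2 change was 0.86 (limma adjusted p = 0.0169). The lncRNA gene Gm16755 covers 13.1% of its exonic bases on the opposite strand. Mrpl10, whose product anchors the stalk, had a log2 change of 0.56 and Mrpl11, at the base of the stalk, one of 0.34, neither past the threshold (limma adjusted p = 0.0689 and 0.213).

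Mrpl45 encodes mL45, which lies at the exit of the peptide tunnel and ties the ribosome to the inner membrane. Mrpl45 (GRCm38 chr11:97315716-97329920, plus strand) had 45.0, 43.4 and 49.2 in the dKO pools, against 28.1, 36.3 and 26.8 in the control pools. The groups did not overlap, and here control 4, not control 1, was the lowest library. The ratio of means was 1.51 (log2 change 0.59, SE 0.15, limma adjusted p = 0.0216). Mrpl4 encodes uL4m, which lines the same tunnel, and had 21.7, 22.8 and 18.4 in the dKO pools, against 9.54, 11.8 and 16.4 in the control pools (log2 change 0.72, limma adjusted p = 0.0404). Here too the groups were apart, with control 4 nearest to the dKO pools.

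The other Mrpl genes past the threshold were Mrpl38 and Mrpl37, whose products have no bacterial counterpart, and Mrpl28 and Mrpl19, whose products do. Mrpl38 had 24.6, 19.0 and 18.4 in the dKO pools, against 8.74, 13.4 and 12.4 in the control pools (log2 change 0.80, limma adjusted p = 0.0238). Mrpl28 had 42.1, 26.4 and 28.5 in the dKO pools, against 12.6, 19.1 and 20.8 in the control pools (log2 change 0.85, limma adjusted p = 0.0263). In both, dKO 1 was the highest library and control 1 the lowest. Mrpl37 had 67.2, 55.7 and 55.1 in the dKO pools, against 30.2, 46.3 and 41.0 in the control pools (log2 change 0.60, limma adjusted p = 0.0316). Mrpl19 had 48.5, 39.2 and 36.3 in the dKO pools, against 23.1, 28.0 and 30.6 in the control pools (log2 change 0.58, limma adjusted p = 0.0322), and 36% of its exonic bases lie in Gcfc2 on the opposite strand. Neither gene's groups overlapped, and control 1 was the lowest library in both.

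In the small subunit the smallest p of all 80 genes belonged to Mrps27, which encodes mS27, a pentatricopeptide repeat protein with no bacterial counterpart. Mrps27 (ENSMUSG00000041632, GRCm38 chr13:99344786-99415562, plus strand) had 42.6, 36.7 and 29.7 in the dKO pools, against 16.3, 21.3 and 21.5 in the control pools. The lowest dKO pool was well above the highest control pool. Means were 36.3 ± 6.41 in dKO pools and 19.7 ± 2.96 in control pools (SD, n = 3 each), a ratio of 1.85 (log2 change 0.85, SE 0.18, limma adjusted p = 0.0091; 0.72 and 0.0199 without control 1). Of its exonic bases 24.2% are shared with 6430562O15Rik on the opposite strand.

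Mrps5 encodes uS5m, of bacterial type, near the entry of the messenger RNA channel. Mrps5 (GRCm38 chr2:127587222-127606829, plus strand) had 47.3, 55.2 and 56.1 in the dKO pools, against 25.2, 36.9 and 37.9 in the control pools. The groups were apart, and within the dKO pools dKO 1 was here the lowest. The ratio of means was 1.59 (log2 change 0.67, SE 0.18, limma adjusted p = 0.0216), and without control 1 the log2 change was 0.49 (limma adjusted p = 0.0413). Together with Mrpl12, Mrpl45 and Mrps27 it made up the 4 genes that stayed past the threshold when control 1 was left out; the other 9 then had log2 changes of 0.43 to 0.64 and limma adjusted p of 0.0501 to 0.104. Mrps5 and Mrpl45 did not pass without dKO 2 or without dKO 3, nor Mrpl45 without control 4, whereas Mrpl12 and Mrps27 passed whichever library was left out.

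Mrps7 encodes uS7m, a protein of the head of the small subunit that binds its ribosomal RNA. It had 36.3, 29.5 and 32.5 in the dKO pools, against 21.5, 22.1 and 24.7 in the control pools (log2 change 0.50, limma adjusted p = 0.0400), and 11.9% of its exonic bases lie in Gga3 and Mif4gd. Mrps21, the gene of bS21m, had 66.9, 47.5 and 51.6 in the dKO pools, against 25.7, 38.5 and 39.7 in the control pools (log2 change 0.67, limma adjusted p = 0.0339). The groups were apart in both genes. Mrps23 and Mrps31 encode proteins found in mitochondrial but not bacterial ribosomes. Mrps23 had 58.3, 52.2 and 47.2 in the dKO pools, against 23.4, 39.0 and 35.8 in the control pools (log2 change 0.69, limma adjusted p = 0.0278). Mrps31 had 40.3, 34.1 and 41.1 in the dKO pools, against 23.9, 31.1 and 20.6 in the control pools (log2 change 0.61, limma adjusted p = 0.0339). Again no dKO pool fell within the range of the controls. Across the 13 genes the ratio of means ran from 1.44 for Mrps7 to 2.24 for Mrpl12.

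**Figure D2:**
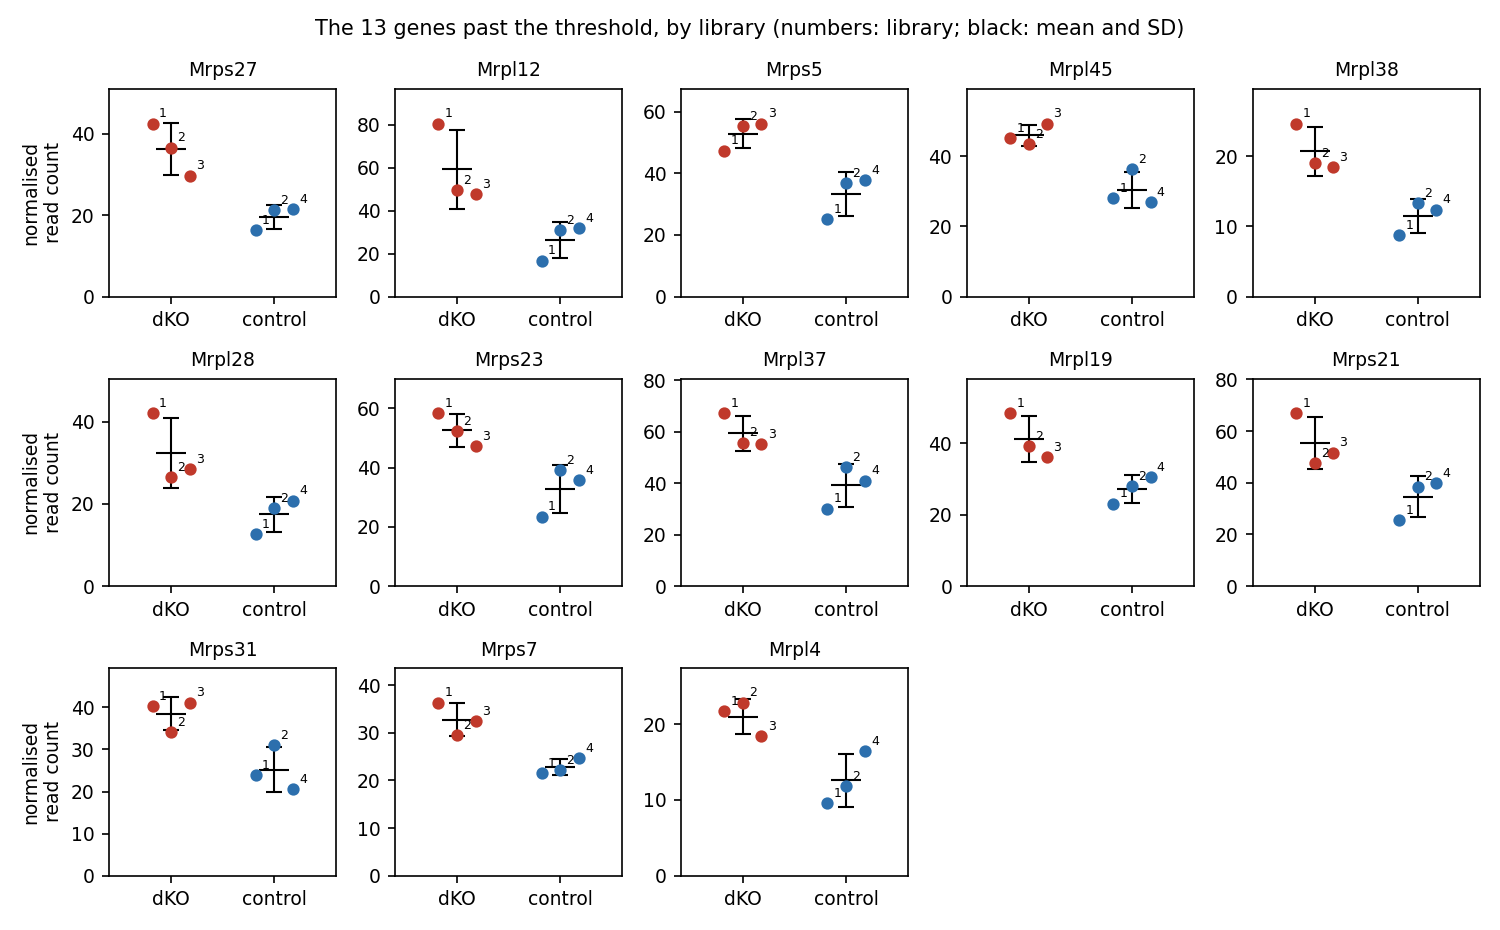
Normalised read count of the 13 genes past the threshold in each library (red, dKO pools 1, 2 and 3; blue, control pools 1, 2 and 4; black, mean and SD of 3 pools), ordered by p, each panel starting at 0. The groups are apart in all 13 panels; control 1 is the lowest point in most of them, but not in Mrpl45 or Mrps31.

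Just short of the threshold lay Mrps35 (log2 change 0.49, limma adjusted p = 0.0542) and Mrpl42 (0.75, limma adjusted p = 0.0555). Mrpl42, the most abundant of the 80 genes in reads, had 155, 157 and 161 in the dKO pools, against 58.3, 137 and 103 in the control pools. The dKO pools were nearly equal and all above the controls, which spread over a wide range. At the other end were genes with almost the same level in both genotypes. Mrpl50 had 57.8, 57.3 and 58.4 in the dKO pools, against 52.6, 69.1 and 51.5 in the control pools (log2 change 0.02, SE 0.14). Mrps15, whose bacterial relative binds ribosomal RNA early in assembly, had 35.6, 33.0 and 37.0 in the dKO pools, against 31.0, 37.8 and 34.5 in the control pools (log2 change 0.03, SE 0.14). For Mrpl32, whose product is matured by an inner-membrane protease, the log2 change was -0.02 (SE 0.18), and for Mrps12, of the decoding centre, it was 0.05 (SE 0.26). With these SEs a small change in either direction was not detectable.

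Only 4 of the 80 genes had a log2 change below 0: Mrpl23 (-0.12), Mrpl17 (-0.11), Mrpl32 (-0.02) and Mrpl48 (-0.02), none of them past the threshold. Mrpl23, which encodes a protein at the tunnel exit, and Mrpl48 are also the genes with a pseudogene in the table. Over the transcripts, Mrpl23-ps1 was identical to Mrpl23 in 540 of its 580 bases, all in 1 unbroken run, and Mrpl48-ps matched Mrpl48 in 624 of 636 bases (98.1%). Reads from such stretches could be assigned to either copy. Mrpl23 alone had 12.7, 23.7 and 10.99 in the dKO pools, against 11.1, 18.9 and 20.6 in the control pools, and Mrpl23-ps1 had 21.4, 2.33 and 16.4 in the dKO pools, against 2.07, 0.351 and 7.02 in the control pools. The library with the highest value for Mrpl23, dKO 2, had the lowest for the pseudogene among the dKO pools. Summed, the pair had 34.1, 26.0 and 27.4 in the dKO pools, against 13.2, 19.2 and 27.6 in the control pools, a log2 change of 0.57 (SE 0.25, limma adjusted p = 0.126), so that the sign of Mrpl23 depended on whether the copies were summed. For Mrpl48 and Mrpl48-ps together the log2 change was 0.01 (SE 0.15, limma adjusted p = 0.986). Both pseudogenes and Mrpl23 are therefore reported as uncertain.

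**Figure D3:**
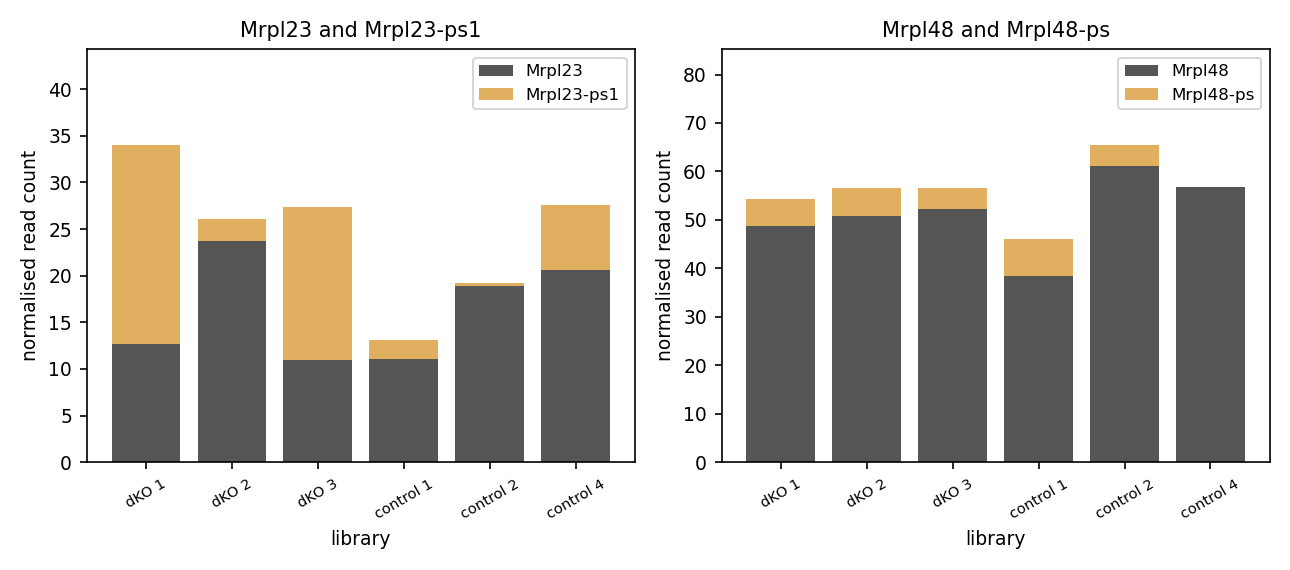
Normalised read count in each library (dKO pools left, control pools right), stacked for Mrpl23 with Mrpl23-ps1 and for Mrpl48 with Mrpl48-ps. The pseudogene holds 21.4 of 34.1 in dKO 1 and 0.351 of 19.2 in control 2 in the left panel, and a minor share of every bar in the right panel.

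Levels of RNA per kilobase of exon spanned a wide range among the genes of the set, including Mrps36, whose product lies outside the ribosome. Among Mrpl genes they were highest for Mrpl42 (42.8), Mrpl24 (42.0) and Mrpl18 (39.8) in dKO pools, and for Mrpl24 (36.2), Mrpl18 (28.8) and Mrpl50 (27.3) in control pools. The lowest Mrpl level was that of Mrpl23 in dKO pools (3.23) and of Mrpl57 in control pools (3.38). The place of Mrpl23 is uncertain, since its reads could also be assigned to Mrpl23-ps1. Among Mrps genes the order at the top was the same in both genotypes, with Mrps21 at 74.9 in dKO and 46.9 in control pools, Mrps36 at 48.2 and 34.4, and Mrps33 at 35.8 and 30.8. At the bottom were Mrps10 (2.95 in dKO and 2.57 in control pools) and Mrps11 (2.08 and 1.599). Differences between neighbours in these orders were not tested. Of these, only Mrps21 passed the threshold. Mrpl24, whose bacterial relative is among the first to bind ribosomal RNA, had a log2 change of 0.20 (SE 0.13, limma adjusted p = 0.318). Mrps10, a protein of the head, had one of 0.19 (limma adjusted p = 0.546). The exon lengths are those of all annotated isoforms together, which lowers the value of genes with long alternative exons.

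The Mrps18 genes encode 3 paralogs at different places: Mrps18c the bacterial-type protein of the small subunit, Mrps18b a second small-subunit protein and Mrps18a a protein of the large subunit. Their log2 changes were 0.24, 0.39 and 0.39 (limma adjusted p = 0.319, 0.128 and 0.254). Mrps18b had 32.9, 25.5 and 23.8 in the dKO pools, against 21.3, 20.4 and 19.6 in the control pools, without overlap. Mrpl58, a peptidyl-tRNA hydrolase that became a ribosomal protein and can rescue stalled ribosomes, had 41.6, 34.1 and 32.5 in the dKO pools, against 25.3, 32.5 and 31.8 in the control pools (log2 change 0.26, limma adjusted p = 0.280). The dKO pools lay above the controls by a small margin at the closest point. Mrps36, of the 2-oxoglutarate dehydrogenase complex, had 63.9, 60.9 and 59.6 in the dKO pools, against 28.8, 56.3 and 46.4 in the control pools (log2 change 0.53, limma adjusted p = 0.104).

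Arranged by place in the ribosome instead of by symbol, with the pseudogenes and Mrps36 left out, 7 of 51 large-subunit genes and 6 of 26 small-subunit genes were higher, with medians of 0.39 and 0.25. Over all genes 9.81% were higher. Of the 46 genes for bacterial-type proteins 7 were higher, with a median log2 change of 0.32. Of the 31 genes for proteins without a bacterial counterpart 6 were higher, with a median of 0.44. The difference between these classes was not tested. Within the small subunit the 10 genes without a bacterial counterpart had 3 called and a median of 0.47, and the 16 of bacterial type 3 called and a median of 0.23.

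More than 10% of the exonic bases were shared with another gene in 18 of the 80 genes, and since strand is not recorded, reads there cannot be assigned. These 18 genes had 4 called (22.2%) and a median log2 change of 0.48, and the other 62 had 9 called (14.5%) and a median of 0.32. Of those 62, the 47 genes with no shared exonic bases had 9 called (19.1%) and a median of 0.46. Differences between these groups were not tested. All these calls were higher in dKO pools, against 9.81% of all genes. The largest overlaps were in Mrpl53 (88.0%), Mrps34 (77.8%) and Mrps25 (69.8%, with Nr2c2), with log2 changes of 0.47, 0.44 and 0.18, none past the threshold. Mrpl43 shares 33.4% with Twnk, the mitochondrial DNA helicase, and Mrpl46 shares 12.2% with Mrps11, which starts head to head with it. Mrpl46 had a log2 change of 0.68 (limma adjusted p = 0.0641) and Mrps11 one of 0.23 (limma adjusted p = 0.670). The remaining genes over this limit were Mrps18b (30.5%), Mrpl24 (26.3%), Mrpl47 (24.2%), Mrps18c (23.2%), Mrps6 (19.9%), Mrps24 (15.4%), Mrpl10 (14.1%), Mrpl14 (11.2%) and Mrpl18 (10.1%), none of which passed.

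Summed over the coding genes, the large subunit had 2170, 1838 and 1949 in the dKO pools, against 1219, 1794 and 1546 in the control pools. The small subunit had 1158, 993 and 1019 in the dKO pools, against 679, 963 and 824 in the control pools. The dKO pools were above the controls in both sums, by a narrow margin over control 2. The ratio of the large to the small sum was 1.87, 1.85 and 1.91 in the dKO pools, against 1.80, 1.86 and 1.88 in the control pools, and the groups overlapped. As a share of the signal of all nuclear genes, the coding genes of both subunits held 0.365%, 0.328% and 0.337% in the dKO pools, against 0.218%, 0.307% and 0.268% in the control pools.

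The same sum was also set against other gene groups. Relative to 77 nuclear genes for subunits of the respiratory chain and ATP synthase (OXPHOS), it was 13.2%, 12.9% and 13.5% in the dKO pools, against 22.2%, 19.2% and 16.51% in the control pools. All dKO pools lay below all control pools in this share. Of the 77 OXPHOS genes 60 were higher and 1 lower, against 9.81% and 12.2% of all genes, with a median log2 change of 0.85. By edgeR the counts were 47 and 1, against 8.96% and 11.4% of all genes. Without control 1, 42 were higher, against 8.06% of all genes, and the median was 0.61. Relative to 78 genes for cytosolic ribosomal proteins it was 13.3%, 14.1% and 13.01% in the dKO pools, against 6.88%, 8.75% and 9.09% in the control pools. All dKO pools lay above all control pools. Of those 78 genes 0 were higher and 11 lower (14.1%, near the 12.2% of all genes), with a median of -0.31. By edgeR 0 were higher and 8 lower, and 36 passed an unadjusted limma p of 0.05 in either direction. The smallest p was that of Rps12 (log2 change -0.83, limma adjusted p = 0.0036).

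**Figure D4:**
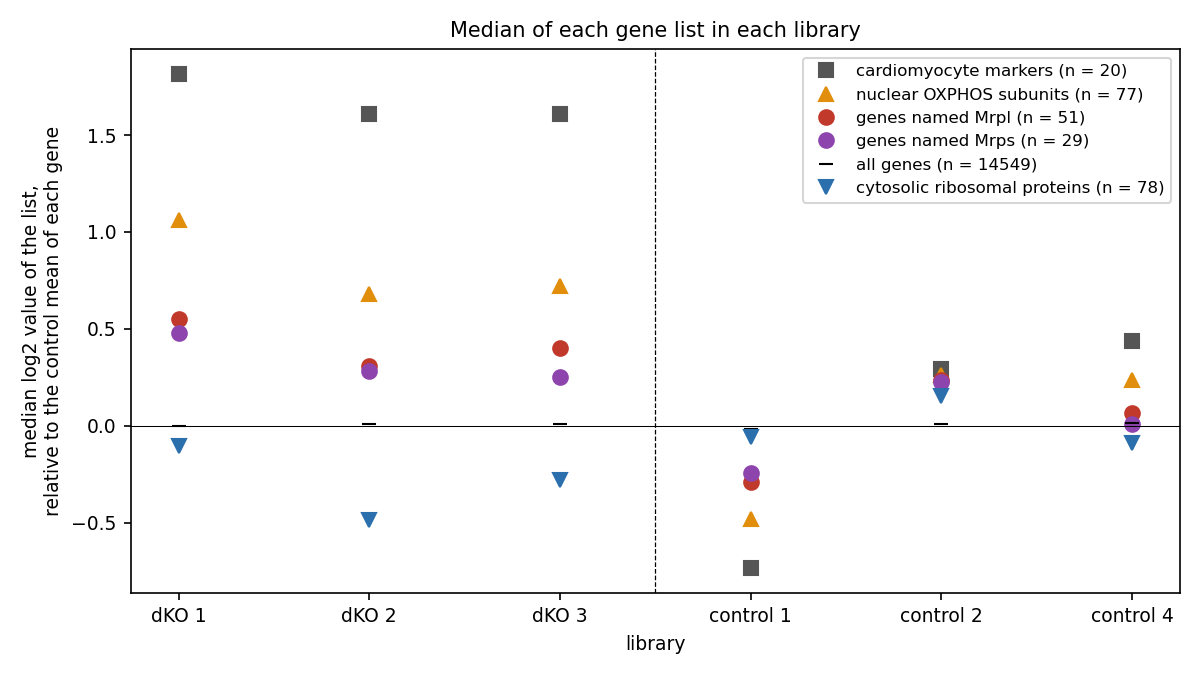
Median log2 value of each gene list in each library, relative to the control mean of each gene. Medians of the Mrpl and Mrps genes are 0.55 and 0.48 in dKO 1, 0.31 and 0.28 in dKO 2, 0.40 and 0.25 in dKO 3, -0.29 and -0.24 in control 1, 0.23 and 0.22 in control 2, and 0.07 and 0.01 in control 4; cardiomyocyte markers and OXPHOS subunits spread farther in the same order of groups, and the median over all genes stays close to 0.

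The deviations in that plot show how close control 2 came to the dKO pools for ribosomal genes. Control 2 exceeded control 1 for 76 of 80 genes and control 4 exceeded control 1 for 64. Among cardiomyocyte markers both did so for 20 of 20. The share of mitochondrially encoded genes in the deposited signal was 19.9%, 11.3% and 12.4% in the dKO pools, against 5.99%, 8.80% and 10.4% in the control pools, with dKO 1 and control 1 again at the ends. With the mean of the cardiomyocyte markers as a covariate 0 of the 80 genes passed (limma, 0.406% of all genes higher), 16 of 80 log2 changes were above 0, and the medians were -0.22 for both Mrpl and Mrps genes. Because that mean does not overlap between the genotypes, its part and that of genotype cannot be told apart.

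Other parts of the mitochondrial translation apparatus were followed in lists drawn from textbook knowledge. At an unadjusted p under 0.05, 5107 of all 14549 genes passed, which is the background for the counts at that level below. Of 5 ribosomal proteins with names of another kind, 1 was higher, against 9.81% of all genes. This was Ptcd3 (mS39), a pentatricopeptide repeat protein at the messenger RNA entry. Ptcd3 had 179, 152 and 169 in the dKO pools, against 73.9, 105 and 108 in the control pools (log2 change 0.81, limma adjusted p = 0.0052). Dap3, Gadd45gip1, Chchd1 and Aurkaip1 had log2 changes of 0.39, 0.55, 0.30 and 0.22 and did not pass. Of 27 genes for assembly and ribosomal RNA modification 3 were higher (11.1%, near the 9.81% of all genes) and 0 lower (edgeR 3 and 0; 9 in either direction at an unadjusted p under 0.05), with a median of 0.36. These were the helicase Dhx30 (log2 change 0.66), the ribosomal RNA methyltransferase Nsun4 (0.69) and the methyltransferase Mrm1 (0.60), with limma adjusted p of 0.0057, 0.0099 and 0.0388.

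Factors that act on the ribosome formed another list. Of 16 translation factors and related genes 8 were higher, against 9.81% of all genes, and 0 lower, with a median of 0.44. By edgeR 8 were higher and 0 lower, and 8 passed an unadjusted limma p of 0.05 in either direction. Lrpprc, which stabilises mitochondrial messages, had 218, 217 and 205 in the dKO pools, against 88.7, 110 and 124 in the control pools (log2 change 0.995, limma adjusted p = 8.2e-04). Tufm, the elongation factor that delivers aminoacyl-tRNA, had 146, 140 and 141 in the dKO pools, against 47.6, 72.9 and 88.1 in the control pools (log2 change 1.07, limma adjusted p = 0.0037). The groups lay far apart in both genes. Gfm2, a factor of ribosome recycling, and Oxa1l, the insertase that receives nascent chains, followed with log2 changes of 0.71 and 0.85 (limma adjusted p = 0.0064 and 0.0068). Mrrf, the recycling factor, had a log2 change of -0.24 and did not pass (limma adjusted p = 0.362).

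Among 20 genes for mitochondrial aminoacyl-tRNA synthetases and the glutamyl-tRNA amidotransferase 8 were higher, against 9.81% of all genes, and 0 lower, with a median of 0.51. By edgeR 7 were higher and 0 lower, and 11 passed an unadjusted limma p of 0.05 in either direction. Gatb and Qrsl1, subunits of the amidotransferase, had log2 changes of 0.95 and 1.07 (limma adjusted p = 0.0025 and 0.0067). Iars2 and Ears2, which charge isoleucine and glutamate tRNAs, had changes of 0.76 and 1.25 (limma adjusted p = 0.0029 and 0.0047). Lars2 did not pass (means of 771 and 801 in dKO and control pools, log2 change -0.06, SE 0.14). Its level was the highest of the list, whose median level was 22.3, and why it stood apart was not tested. For transcription and replication of mitochondrial DNA 2 of 11 genes were higher (against 9.81% of all genes) and 0 lower, and edgeR also called 2 and 0. At an unadjusted limma p under 0.05, 2 of 11 passed, a share below the 5107 of 14549 over all genes. The 2 genes were the RNA polymerase Polrmt (means of 8.40 and 3.77 in dKO and control pools, log2 change 0.97, limma adjusted p = 0.0147) and Twnk (means of 32.3 and 23.3 in dKO and control pools, log2 change 0.45, limma adjusted p = 0.0467). Without control 1 Polrmt still passed (limma adjusted p = 0.0348) and Twnk did not (0.0934). Twnk shares exonic bases with Mrpl43 on the opposite strand, and reads there cannot be assigned. Tfam, which packages that DNA, had means of 59.99 and 56.8 in dKO and control pools (log2 change 0.08, limma adjusted p = 0.757).

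The RNAs that these proteins bind and read were measured as well. The ribosomal RNA mt-Rnr1 had 2589, 991 and 1040.4 in the dKO pools, against 717, 1068 and 1311 in the control pools (log2 change 0.47, limma adjusted p = 0.384), and mt-Rnr2 a log2 change of 0.59 (limma adjusted p = 0.279). In both, dKO 1 alone stood above the controls, and the groups overlapped. These RNAs carry at most short A tails and are captured only in part by poly(A) selection. Of 13 mitochondrially encoded messages 1 was higher (7.69%, against 9.81% of all genes) and 0 lower, while edgeR called 2 and 0. The 1 gene was mt-Co3, with a log2 change of 2.16 (limma adjusted p = 0.0034). At an unadjusted limma p under 0.05, 8 of the 13 passed. The median of the 13 was 0.86, and 0.58 without control 1. For all 13 messages dKO 1 was the highest library and control 1 the lowest.

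**Figure D5:**
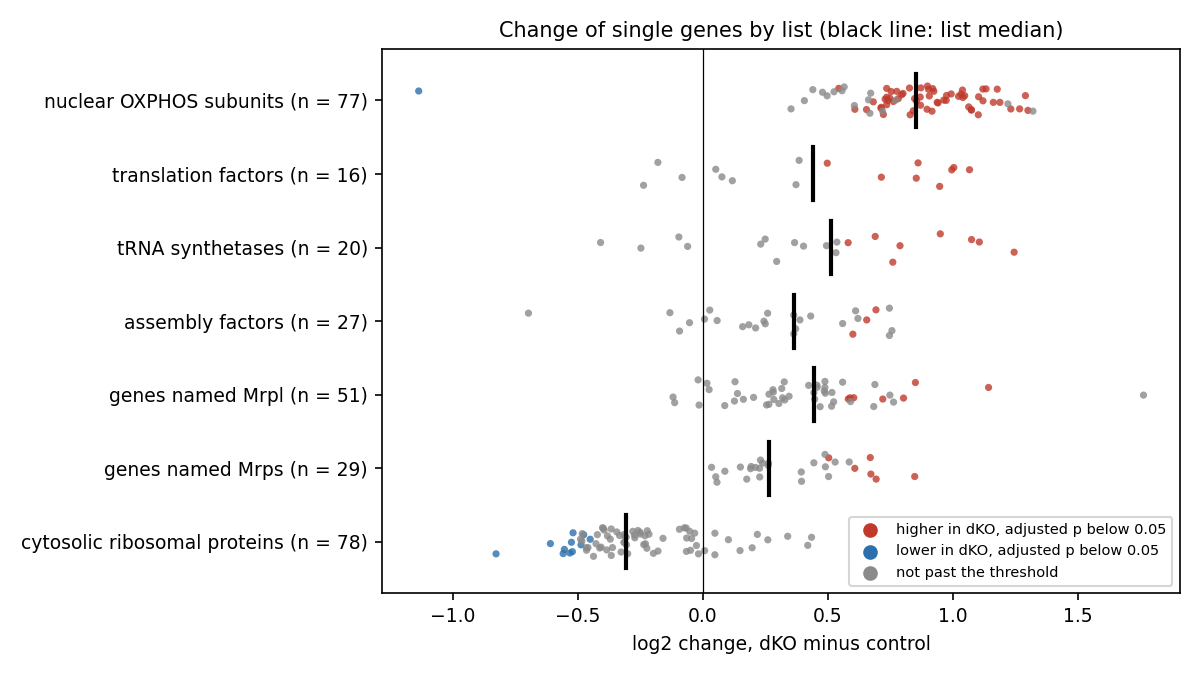
Log2 change (dKO minus control) of each gene by list, 1 point a gene, with the list median as a black line; red and blue mark genes higher and lower at a limma adjusted p under 0.05. Medians are 0.85 for OXPHOS subunits, 0.44, 0.51 and 0.36 for translation factors, tRNA synthetases and assembly factors, 0.44 and 0.26 for Mrpl and Mrps genes and -0.31 for cytosolic ribosomal proteins.

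Regulators known to act on genes of this kind made up the last list. Of 11 such genes 3 were higher (against 9.81% of all genes) and 0 lower, and edgeR also called 3 and 0. At an unadjusted limma p under 0.05, 5 passed in either direction, against 5107 of all 14549 genes. The coactivator Ppargc1a had 97.1, 138 and 101 in the dKO pools, against 21.7, 45.2 and 47.3 in the control pools (log2 change 1.59, limma adjusted p = 0.0025). Its nuclear receptor partner Esrra had 16.8, 12.6 and 9.96 in the dKO pools, against 2.69, 4.88 and 4.10 in the control pools (log2 change 1.53, limma adjusted p = 0.0035). In both genes the dKO pools stood clear of the controls. Mycn, a transcription factor of growth, had a log2 change of 0.82 (limma adjusted p = 0.0323). Nrf1, Gabpa and Yy1, whose motifs are common in promoters of mitochondrial genes, had means of 25.6 and 23.1, of 94.9 and 90.9, and of 89.6 and 104 in dKO and control pools, with log2 changes of 0.14, 0.06 and -0.21, none past the threshold (limma adjusted p = 0.587, 0.765 and 0.239).

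Promoter windows from RefSeq (GRCm38.p6, 250 bases before and 50 after each start) were found for 69 of the 80 genes, in 75 windows, and for 10 of the 13 genes past the threshold. They were searched on both strands for the letters of 5 motifs. The NRF1 letters (GCGCA, any base, GCGC) stood in 13 of 75 windows (17.3%), against 4.60% of all 32851 windows. The ETS letters CCGGAAGT, which GABPA binds, stood in 12 (16.0%, against 3.89%), and the YY1 letters AAGATGGC in 12 (16.0%, against 2.75%). ERR letters (AAGGTCA), bound by the product of Esrra, stood in 4 (5.33%, against 4.72%), and MEIS letters (TGACAG) in 16 (21.3%, against 19.2%). In the 10 windows of genes past the threshold the counts were 3 for NRF1, 1 for ETS, 3 for YY1, 2 for ERR and 6 for MEIS. These are counts of letters, without a test and without evidence of binding.

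The windows of 3 of the 4 genes that stayed past the threshold without control 1, and of a gene with nearly the same mean in both genotypes (Mrpl32), are given to show where the letters lie, each 5′ to 3′ on the gene's strand with matches in capitals. The windows of Mrps5 and Mrpl50 held none of the 5 motifs. Mrps27 (chr13:99344536-99344835, plus strand) has the ETS letters in reverse complement 49 bases before the start and the YY1 letters just after it. Mrpl12 (chr11:120484387-120484686, plus strand) has 1 NRF1 match and, after the start, 1 ERR match in reverse complement. Mrpl45 (chr11:97315466-97315765, plus strand) has 3 NRF1 matches and 1 MEIS match, and Mrpl32 (chr13:14612988-14613287, minus strand) has 1 YY1 and 1 NRF1 match. No match overlaps another in these windows.
Mrps27: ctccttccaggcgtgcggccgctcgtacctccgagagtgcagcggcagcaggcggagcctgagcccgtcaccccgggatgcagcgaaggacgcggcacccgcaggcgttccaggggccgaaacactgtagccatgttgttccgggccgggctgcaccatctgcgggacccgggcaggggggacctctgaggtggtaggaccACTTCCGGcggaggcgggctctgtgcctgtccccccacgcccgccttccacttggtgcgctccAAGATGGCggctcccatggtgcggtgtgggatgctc
Mrpl12: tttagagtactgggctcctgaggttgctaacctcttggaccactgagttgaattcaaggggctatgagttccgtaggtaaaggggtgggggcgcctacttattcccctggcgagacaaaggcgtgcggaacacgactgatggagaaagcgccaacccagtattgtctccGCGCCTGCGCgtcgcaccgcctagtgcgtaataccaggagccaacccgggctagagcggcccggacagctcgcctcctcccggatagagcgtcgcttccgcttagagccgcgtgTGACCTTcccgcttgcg
Mrpl45: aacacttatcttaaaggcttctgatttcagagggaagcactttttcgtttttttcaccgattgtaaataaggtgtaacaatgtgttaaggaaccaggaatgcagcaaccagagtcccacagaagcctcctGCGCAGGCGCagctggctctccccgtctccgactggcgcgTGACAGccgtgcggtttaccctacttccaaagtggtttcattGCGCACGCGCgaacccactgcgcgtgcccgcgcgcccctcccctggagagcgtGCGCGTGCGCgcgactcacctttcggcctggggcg
Mrpl32: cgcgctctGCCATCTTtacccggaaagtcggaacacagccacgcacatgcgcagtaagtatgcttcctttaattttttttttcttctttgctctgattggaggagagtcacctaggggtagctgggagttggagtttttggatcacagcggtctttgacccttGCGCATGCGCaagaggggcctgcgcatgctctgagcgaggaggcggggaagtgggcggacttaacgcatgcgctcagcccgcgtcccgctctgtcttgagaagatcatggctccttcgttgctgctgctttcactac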

How the data were processed

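The submitters' processing notes name cutadapt, RSEM 1.3.1 and the build GRCm38. No source used here states how the values were then normalised or filtered. The deposited signal of 14549 genes in 6 libraries equalled whole reads plus 0.5, per 1000000 of a scaled library size, for all 87294 values within 0.01 reads. Precision is limited by these read totals and by 3 pools a group.

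The filter (a value of 1 or more in 3 libraries or more) removed no gene. dKO and control were compared with limma 3.58.1 (R 4.3.3; linear model on log2 values after adding 1, which understates changes of low genes; variance trend; no covariate), with two-sided p-values adjusted by Benjamini-Hochberg over all 14549 genes at 0.05. The script was tested on simulated data. Alternatives were pseudocounts of 0.5 and 4, a minimum mean of 5, 3 scalings, edgeR 4.0.16 and DESeq2 1.42.0 on the recovered reads, no trend, each library left out, a replicate block and 2 covariates. Positions, exon lengths and overlaps came from GENCODE mouse release 21.

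Members and lists were chosen with earlier results of these data known. Named members are those past the threshold, the highest and lowest per kilobase, the Mrps18 paralogs, Mrpl58, Mrps36 and genes with over 10% exonic overlap, and in each list up to 4 genes with the smallest p. Others, such as Mrpl50, Mrps15, Mrpl11, Lars2 or Tfam, were chosen after their values were seen, as were the assignments to ribosome position and descent.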

Additional observations from a re-analysis of the deposited data

How the results depend on the processing

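Across 20 alternatives no Mrpl or Mrps gene passed as lower, and the same 13 genes stayed past the threshold under the pseudocounts, filters, scalings, edgeR and DESeq2. The median change over all genes shifted by at most 0.04 under any scaling. Without a variance trend 3 Mrpl and 1 Mrps genes were higher, 4 of the 80, a share below the 7.95% of all genes. With 1 library left out, Mrpl counts ran from 1 to 12, Mrps counts from 1 to 9, their median log2 changes from 0.28 to 0.52 and from 0.23 to 0.45, and the count of all genes higher from 898 to 1262. By library, the 80 genes gave 4, 6 and 2 calls without dKO 1, 2 and 3, and 4, 21 and 10 without control 1, 2 and 4, against 8.08%, 6.25% and 6.17%, and 8.06%, 8.20% and 8.67% of all genes higher. Only without control 2 or 4, or dKO 2, was the members' share above that of all genes. Without control 1 and dKO 1 together, 2 and 2 were higher and the Mrpl median was 0.22, so that the members' share lay below the 9.82% of all genes. With sex of the pools as a covariate the counts were 2 and 2, against 6.79% of all genes, and 9 of the 13 calls were lost. Mrpl12 passed in 19 of 19 settings other than the cardiomyocyte covariate (log2 0.62 to 1.43) and Mrps27 in 18 of 19.

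The titles share numbers 1 and 2, but no label states that same-numbered pools are paired. Their deviations from the group means correlated at -0.18 and -0.20. These values cannot show whether such pools share a litter or batch, because each deviation also carries other differences between the pools of a group. With a replicate block, which leaves 1 residual degree of freedom, 580 genes were higher and 780 lower. Among them 2 Mrpl and 0 Mrps genes were higher, 2 of the 80, a share below the 3.99% of all genes. Of the 13 genes past the threshold without the block 12 were lost and only Mrpl12 still passed. The other Mrpl gene was not among the 13. Mrps27 then had a limma adjusted p of 0.0504.

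With the cardiomyocyte marker mean as a covariate 59 genes were higher and 219 lower, 0 Mrpl and 0 Mrps genes passed, and the medians turned to -0.22 and -0.22. Of the 13 genes 8 changed sign: Mrpl12 (-0.29), Mrps5 (-0.037), Mrpl38 (-0.027), Mrpl28 (-0.22), Mrps23 (-0.28), Mrpl37 (-0.19), Mrps21 (-0.30) and Mrpl4 (-0.027). The cause was not tested. At 3 pools a group, changes near the SE of a gene, about 0.13 to 0.75 log2 units here, are not detectable.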
